A study of Ovis aries with 15 samples.

Results

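The genes described here are the antioxidant and glutathione genes: the superoxide dismutases, catalase, glutathione peroxidases, peroxiredoxins, thioredoxins, glutaredoxins, glutathione-synthesising and glutathione-conjugating enzymes, quinone reductases, heme oxygenases, methionine sulfoxide reductases and their regulator pair NFE2L2 and KEAP1. They were chosen by name from a list of 43 genes and not by their measured values. Of these, 39 had a probe set annotated with that symbol alone, against 9155 named genes on the array, and 37 reached the signal needed for testing, against 7546 named genes tested. GPX8, GLRX, GSTP1 and GSTA1 had no such probe set. GCLC and MSRA had one, but their highest signals over the 15 arrays were 36.3 and 47.7, below the minimum of 50 required on at least 3 arrays. Where several probe sets carried the same symbol, the brightest on average (mean log2 signal) stands for the gene.

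The signals came from the longissimus dorsi, the long muscle of the loin, of Dorset/Suffolk/Rambouillet cross-bred sheep. The postnatal animals were lambs, newborn at 150 d and some months old at 230 d. The fetal animals were taken at 80, 100 and 120 d of development. Each stage had 3 animals, different ones each time, with 1 array per animal, so that there were 6 postnatal and 9 fetal arrays. According to the methods all animals were male except 1 female at 100 d and 1 at 120 d. The animals were untreated and no stage was a model of disease. The array was designed on cattle sequence, so a dim probe set may only match the sheep transcript poorly, and signals are compared here only between arrays for the same gene.

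Mitochondria, peroxisomes and several oxidases release superoxide. Superoxide dismutases turn it into hydrogen peroxide, which catalase, glutathione peroxidases and peroxiredoxins reduce to water. Glutathione peroxidases and glutaredoxins draw their electrons from glutathione and most peroxiredoxins from thioredoxin, and both pools are kept reduced by NADPH. The transcription factor NRF2, encoded by NFE2L2, activates many of these genes, and KEAP1 marks it for degradation. Muscle that works by oxidative metabolism depends on these enzymes in and around its mitochondria.

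Signals are in MAS5 units, in which every array was scaled to a mean of 200. Median signal over all probe sets ranged from 51.4 to 69.4, and 50.7% to 58.1% of probe sets reached 50. The 3' over 5' ratio of the actin and GAPDH control probe sets measures RNA length. For actin it was 0.852 to 1.04 on postnatal and 0.933 to 2.21 on fetal arrays. The actin ratio was 0.933 to 1.14 at 120 d and 0.852 to 0.953 at 150 d. For GAPDH it was 1.1 to 1.34 on postnatal and 0.99 to 1.22 on fetal arrays. The hybridisation controls, transcripts added in equal amounts to each array, had mean log2 signals of 10.4 to 11.06 on postnatal arrays, against 9.757 to 10.25 on fetal arrays, and the ranges did not overlap. What lay behind this difference was not tested, and results with arrays scaled to these controls are given below. The defining muscle fibre transcripts were present throughout, and all 14 of those measured exceeded 50 on at least 1 array of every stage.

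Most of the difference among the antioxidant and glutathione genes lay across birth. Between 150 d and 120 d, 11 of the 37 were higher and 1 was lower, where 6.73% of all genes tested were called higher and 6.53% lower (limma, adjusted p under 0.01). The genes called higher were SOD2, GPX3, GPX4, PRDX3, PRDX5, PRDX6, TXN, TXNRD1, GLRX2, NQO1 and NQO2, and the gene called lower was GPX7. The median log2 fold change of the 37 was 0.64, and that of all genes tested was -0.08. Between the postnatal and the fetal mean, 17 of the 37 were higher and 3 lower, where 16.4% of all genes were called higher and 21.7% lower. These comprised all 12 above, in the same directions, with CAT, GPX1, TXN2, TXNRD2, GLRX5 and KEAP1 also higher and PRDX4 and GSTO1 also lower. The 2 comparisons share arrays and do not support each other. Counts over genes that passed the signal minimum are descriptions, since a gene high in 1 stage alone also passes.

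Within fetal life no member passed the test. Between 100 d and 80 d the counts were 0 higher and 0 lower, where 0.133% of all genes were called higher and 0.0398% lower. At an unadjusted p under 0.05 there were 6 members in that interval, SOD2, CAT, GLRX2 and NQO1 with positive differences and GPX4 and MGST1 with negative ones, where 8.56% of all genes had such a p. Between 120 d and 100 d the counts were again 0 and 0, where 0.0265% of all genes were called higher and 0.0265% lower. In that interval 2 members, NQO2 and GPX4, had an unadjusted p under 0.05, where 8.39% of all genes did. Between 230 d and 150 d, 1 member was higher, GSTM3, and 0 were lower, where 0.888% of all genes were called higher and 1.42% lower, and 13 had an unadjusted p under 0.05, where 24.4% of all genes did. The stage with the highest geometric mean was 230 d for 17 of the 37 genes and 150 d for 12, which is 45.9% and 32.4% of them, against 26.5% and 20.1% of all genes tested.

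**Figure D1:**
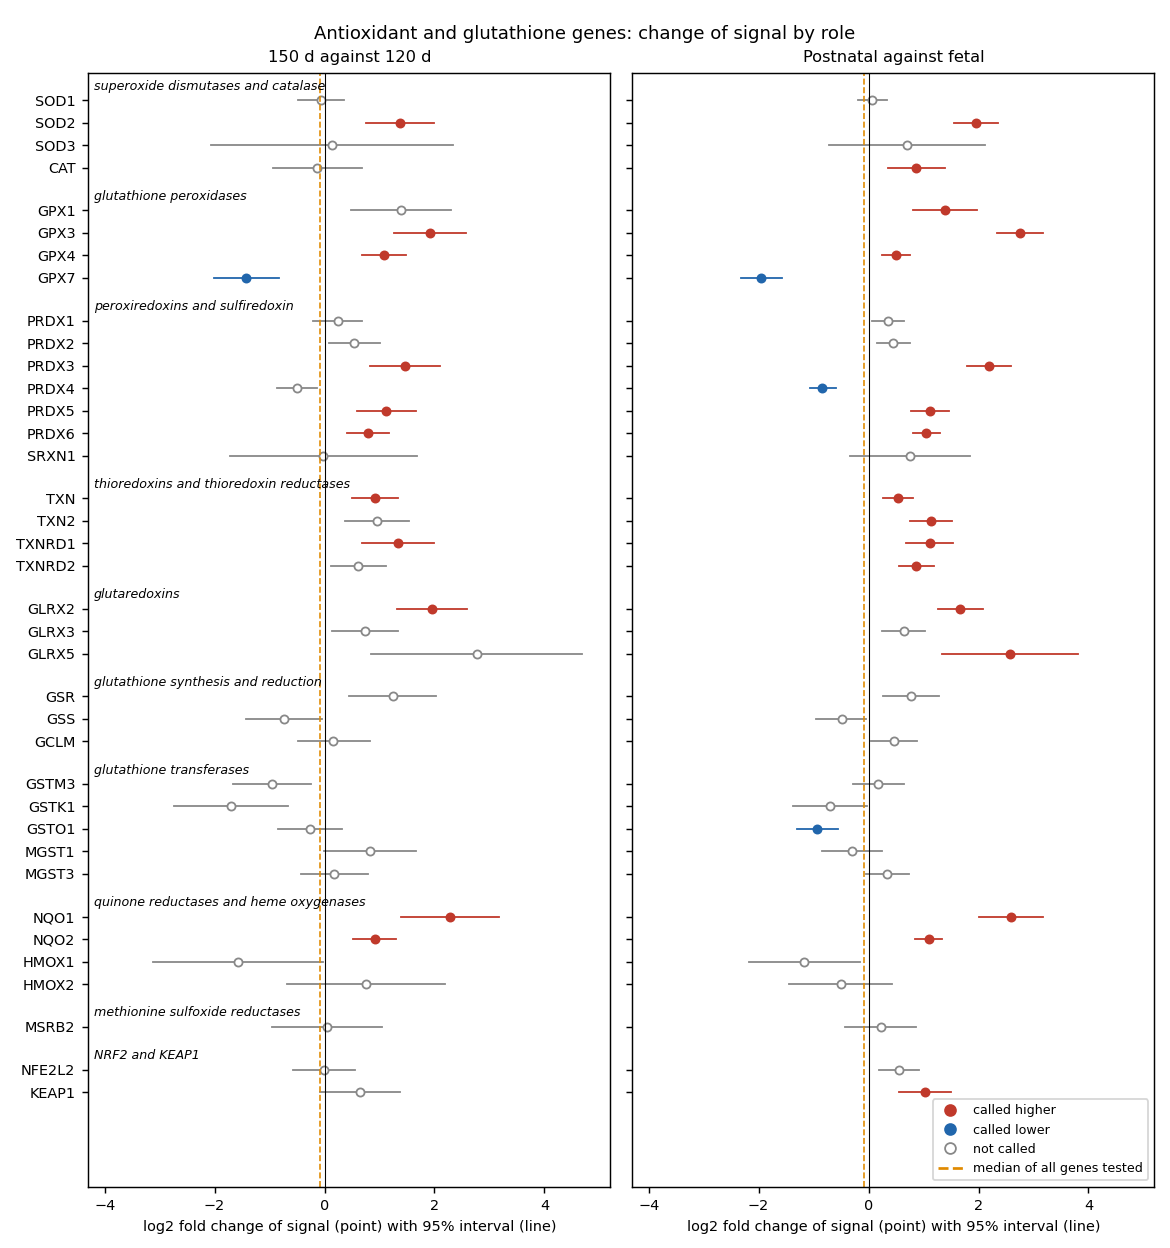
Log2 fold change of signal (horizontal axis) for the 37 antioxidant and glutathione genes tested, at 150 d against 120 d (left) and for the postnatal against the fetal mean (right). Points are fitted values, lines are 95% intervals, filled points passed the test, and the dashed line is the median of all genes tested, which was -0.08 in both panels. In the left panel 11 genes were called higher and 1 lower, and in the right panel 17 and 3.

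These counts rest on the scaling of each array to a common mean. When arrays were instead scaled to the hybridisation controls, an alternative chosen after the data had been seen, the median of all genes moved to -0.73 between 150 d and 120 d and that of the 37 genes to -0.01. The members called were then 2 higher and 5 lower, and genes called over the whole array were 108 higher and 1797 lower, where the usual scaling gave 508 and 493. With array medians set equal the split over the whole array was 708 higher and 280 lower, and the median of the 37 genes was 0.83. GLRX2, NQO1 and GPX7 were called in the same direction with hybridisation-control scaling, and so were SOD2, GPX3, PRDX3, PRDX4 and GSTO1 between the postnatal and the fetal mean. All changes given are relative to the bulk of the array, for these members as for the others and for genes outside the list.

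The enzymes that remove superoxide differed in their course. SOD2, the manganese superoxide dismutase of the mitochondrial matrix, had signals of 526.8, 577.4 and 453.3 at 150 d, against 179.4, 225.8 and 194.9 at 120 d. The groups did not overlap, and SOD2 was 2.59-fold higher at 150 d (log2 fold change 1.38 ± 0.29 SE, adjusted p = 0.00475). Over the fetal stages it lay at 60.9 to 112.7 at 80 d and 122.9 to 171.7 at 100 d, so that every animal at 120 d was above every animal at 80 d and 100 d, although neither fetal step passed the test. At 230 d it gave 360.0, 717.1 and 618.2, and the postnatal mean was 3.86-fold above the fetal mean (log2 fold change 1.95 ± 0.18, adjusted p = 3.22e-06).

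SOD1, the copper and zinc enzyme of the cytosol, stayed within 666.2 to 1040.6 on the postnatal arrays and 688.5 to 909.8 on the fetal arrays. The groups overlapped almost completely, and the postnatal minus fetal difference was 0.07 on the log2 scale with a 95% interval of -0.20 to 0.34. SOD3, the enzyme secreted to the extracellular space, was close to the limit of measurement, with 9 of 15 arrays at 50 or more, and its interval of -0.72 to 2.12 allowed changes in either direction.

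Catalase, which breaks down hydrogen peroxide in peroxisomes, showed a gradual course. CAT gave 556.6, 874.4 and 800.4 at 80 d, 1021.8, 1658.7 and 1397.0 at 100 d, 1498.3, 2077.6 and 3371.7 at 120 d, 1523.3, 2371.8 and 2234.5 at 150 d, and 2418.0, 4623.5 and 1908.0 at 230 d. Animals at 80 d were the lowest, and those at 120 d and 150 d overlapped. No interval passed the test, and between 150 d and 120 d the log2 difference was -0.13 with an interval of -0.93 to 0.68. In postnatal animals as a whole the signal was 1.83-fold above that of fetal animals (log2 fold change 0.87 ± 0.24, adjusted p = 0.00926), with overlapping groups. This call was lost in 12 of 15 runs that left out 1 array, all but those without 120 d replicate 3, 150 d replicate 1 or 230 d replicate 3, with log2 fold changes of 0.69 to 1.01.

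The glutathione peroxidases moved in opposite directions. GPX3, the selenium-containing peroxidase that is secreted into plasma and extracellular fluid, had 336.8, 502.8 and 801.2 at 150 d, against 119.3, 127.5 and 163.4 at 120 d. Every animal at 150 d was above every fetal animal, and the difference was 3.79-fold (log2 fold change 1.92 ± 0.30, adjusted p = 0.000882). Signals were higher again at 230 d, with 1298.9, 1274.6 and 1439.0, a 2.60-fold difference from 150 d that did not overlap but missed the threshold (log2 fold change 1.38 ± 0.30, adjusted p = 0.0177). Averaged over stages, postnatal signals stood 6.77-fold above fetal signals (log2 fold change 2.76 ± 0.19, adjusted p = 2.94e-07). Of the 37 genes this was the largest positive difference on the log2 scale.

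GPX7, a peroxidase of the endoplasmic reticulum that helps to oxidise protein disulfide isomerase, had the reverse course. It gave 400.6, 437.3 and 639.1 at 150 d, against 1050.0, 1346.1 and 1526.0 at 120 d, and fell 2.68-fold (log2 fold change -1.42 ± 0.27, adjusted p = 0.00288). At 230 d the signals were 182.1, 273.6 and 219.1, below all of those at 150 d, with a log2 difference of -1.12 that missed the threshold (adjusted p = 0.0291). The fetal animals lay between 819.5 and 1604.0 with no step between stages that passed. The postnatal mean was 3.87-fold below the fetal mean (log2 fold change -1.95 ± 0.18, adjusted p = 2.11e-06).

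GPX4 reduces lipid hydroperoxides inside membranes. It gave 1405.3, 1695.3 and 1654.7 at 80 d, 1248.9, 996.2 and 979.7 at 100 d, 735.9, 833.8 and 641.2 at 120 d, 1835.7, 1515.3 and 1356.7 at 150 d, and 1457.5, 1397.4 and 1539.0 at 230 d. The fetal stages did not overlap and stood in descending order, and the animals at 150 d and 230 d overlapped those at 80 d. The fetal steps of -0.56 and -0.54 on the log2 scale did not pass the test (adjusted p = 0.369 and 0.409). The difference between 150 d and 120 d did, at 2.12-fold higher (log2 fold change 1.09 ± 0.18, adjusted p = 0.00136). Over all stages the postnatal mean was 1.41-fold above the fetal mean (log2 fold change 0.49 ± 0.12, adjusted p = 0.00395), and with hybridisation-control scaling the log2 difference turned to -0.20.

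GPX1, the abundant cytosolic and mitochondrial selenium peroxidase, was even among fetal animals, with 585.7 to 808.0 over 9 arrays. The animals at 150 d spread widely, with 4125.5, 807.7 and 1600.2, against 744.5, 679.2 and 585.7 at 120 d. Replicate 2 at 150 d was at the level of the fetal animals and replicate 1 was the highest of all 15, so the 2.62-fold difference missed the threshold (log2 fold change 1.39 ± 0.42, adjusted p = 0.0322). At 230 d all 3 animals were above the fetal range, with 1684.9, 2123.9 and 2332.7. Averaged over stages, postnatal signals stood 2.63-fold above fetal signals (log2 fold change 1.39 ± 0.27, adjusted p = 0.00102).

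The peroxiredoxins are thiol peroxidases, most of them recycled by thioredoxin. PRDX3, which is confined to mitochondria, had 845.9, 571.7 and 979.2 at 150 d, against 267.3, 283.3 and 297.9 at 120 d. It was 2.76-fold higher with no overlap (log2 fold change 1.46 ± 0.29, adjusted p = 0.00381), and at 230 d it reached 959.9, 1664.2 and 1206.4. In postnatal animals as a whole the signal was 4.58-fold above that of fetal animals (log2 fold change 2.19 ± 0.19, adjusted p = 1.48e-06). PRDX5, found in mitochondria, peroxisomes and cytosol, gave 688.4, 448.4 and 451.0 at 150 d, against 284.8, 247.6 and 191.7 at 120 d. The difference was 2.18-fold (log2 fold change 1.12 ± 0.25, adjusted p = 0.00656), and at 230 d the 3 animals stood close together at 383.7 to 404.7.

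PRDX6, a cytosolic peroxiredoxin that uses glutathione and also has phospholipase activity, gave 1299.0, 1597.1 and 1824.2 at 150 d, against 815.8, 873.7 and 1033.4 at 120 d. The 1.73-fold difference passed (log2 fold change 0.79 ± 0.18, adjusted p = 0.00796), and the postnatal mean was 2.07-fold above the fetal mean (log2 fold change 1.05 ± 0.12, adjusted p = 1.09e-05). Its other 2 tested probe sets, with lower signals, passed in no comparison and did not move together. Their log2 differences were 1.75 and 0.29 between 150 d and 120 d (adjusted p = 0.103 and 0.712). Between the means they were 1.44 and -0.25 (adjusted p = 0.0218 and 0.532). A further probe set of PRDX6 stayed below 50 on all arrays and was not tested. The cytosolic PRDX1 and PRDX2 passed in no comparison. PRDX1 had a postnatal minus fetal log2 difference of 0.36 with an interval of 0.07 to 0.65 (adjusted p = 0.0404), and PRDX2 one of 0.45 with an interval of 0.16 to 0.75 (adjusted p = 0.0154). In both the groups overlapped.

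PRDX4, the peroxiredoxin of the endoplasmic reticulum, was lower after birth. It gave 1022.5, 1061.9 and 1175.1 at 150 d, against 1342.7, 1516.4 and 1779.1 at 120 d, and 676.3, 609.7 and 790.9 at 230 d. Each postnatal stage lay below the stage before it without overlap, but neither step passed (adjusted p = 0.0518 and 0.039). The postnatal mean was 1.79-fold below the fetal mean (log2 fold change -0.84 ± 0.11, adjusted p = 4.83e-05). SRXN1, sulfiredoxin, which repairs over-oxidised peroxiredoxins, reached 50 on 5 of 15 arrays. Its 150 d values of 100.6, 39.0 and 7.7, against 20.8, 47.3 and 32.1 at 120 d, do not allow a fold change to be read.

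In the thioredoxin system all 4 genes were higher in postnatal than in fetal animals. TXN, the cytosolic thioredoxin, showed a peak at birth, with 3685.1, 2839.9 and 2776.9 at 150 d, against 1576.3, 1784.7 and 1513.2 at 120 d. It was 1.90-fold higher at 150 d (log2 fold change 0.92 ± 0.19, adjusted p = 0.00503). At 230 d it gave 2127.0, 1891.6 and 1659.3, below every animal at 150 d and with 2 of 3 inside the fetal range of 1391.9 to 1967.1, a log2 difference of -0.71 from 150 d that missed the threshold (adjusted p = 0.0478). In postnatal animals as a whole the signal was 1.44-fold above that of fetal animals (log2 fold change 0.53 ± 0.12, adjusted p = 0.0037), and hybridisation-control scaling turned that difference to -0.16.

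TXNRD1, the cytosolic thioredoxin reductase, gave 441.3, 230.7 and 216.7 at 150 d, against 108.5, 111.3 and 113.6 at 120 d. The groups were well apart and the difference was 2.52-fold (log2 fold change 1.34 ± 0.30, adjusted p = 0.00773). TXN2 and TXNRD2 are the mitochondrial thioredoxin and its reductase. TXN2 gave 594.4, 412.1 and 306.9 at 150 d, against 191.1, 284.4 and 193.0 at 120 d (log2 fold change 0.95 ± 0.27, adjusted p = 0.0232), which did not overlap but missed the threshold. Its postnatal mean was 2.20-fold above the fetal mean (adjusted p = 0.000156), and that of TXNRD2 was 1.82-fold above (adjusted p = 0.000392).

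Among the glutaredoxins, which use glutathione to reduce protein disulfides, GLRX2 is the mitochondrial form. It gave 786.4, 797.2 and 854.6 at 150 d, against 165.7, 335.0 and 163.4 at 120 d, a 3.89-fold difference (log2 fold change 1.96 ± 0.30, adjusted p = 0.000717). At 230 d it had 472.3, 545.2 and 582.5, below all animals at 150 d and above all fetal animals. Averaged over stages, postnatal signals stood 3.19-fold above fetal signals (log2 fold change 1.67 ± 0.19, adjusted p = 1.52e-05).

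GLRX5, which carries iron-sulfur clusters in mitochondria, had 556.5, 593.0 and 422.3 at 150 d, against 165.9, 192.2 and 13.9 at 120 d. In each of the 3 fetal stages 1 array fell below 50, so the interval was wide and the step missed the threshold (log2 fold change 2.77 ± 0.88, adjusted p = 0.0404). The postnatal mean was 5.94-fold above the fetal mean without overlap (log2 fold change 2.57 ± 0.57, adjusted p = 0.00247). GLRX3, a cytosolic protein of iron handling, gave 653.7, 1040.3 and 981.6 at 150 d, against 514.5, 506.4 and 552.3 at 120 d, a log2 difference of 0.74 that missed the threshold (adjusted p = 0.0744). Its postnatal mean was 1.56-fold above the fetal mean (log2 fold change 0.64, interval 0.25 to 1.02), with an adjusted p that rounds to the threshold of 0.01 and did not pass it. That difference passed with the replicate block, the trend option, the stricter filter, the offset and 2 other scalings (equal medians and quantiles).

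**Figure D2:**
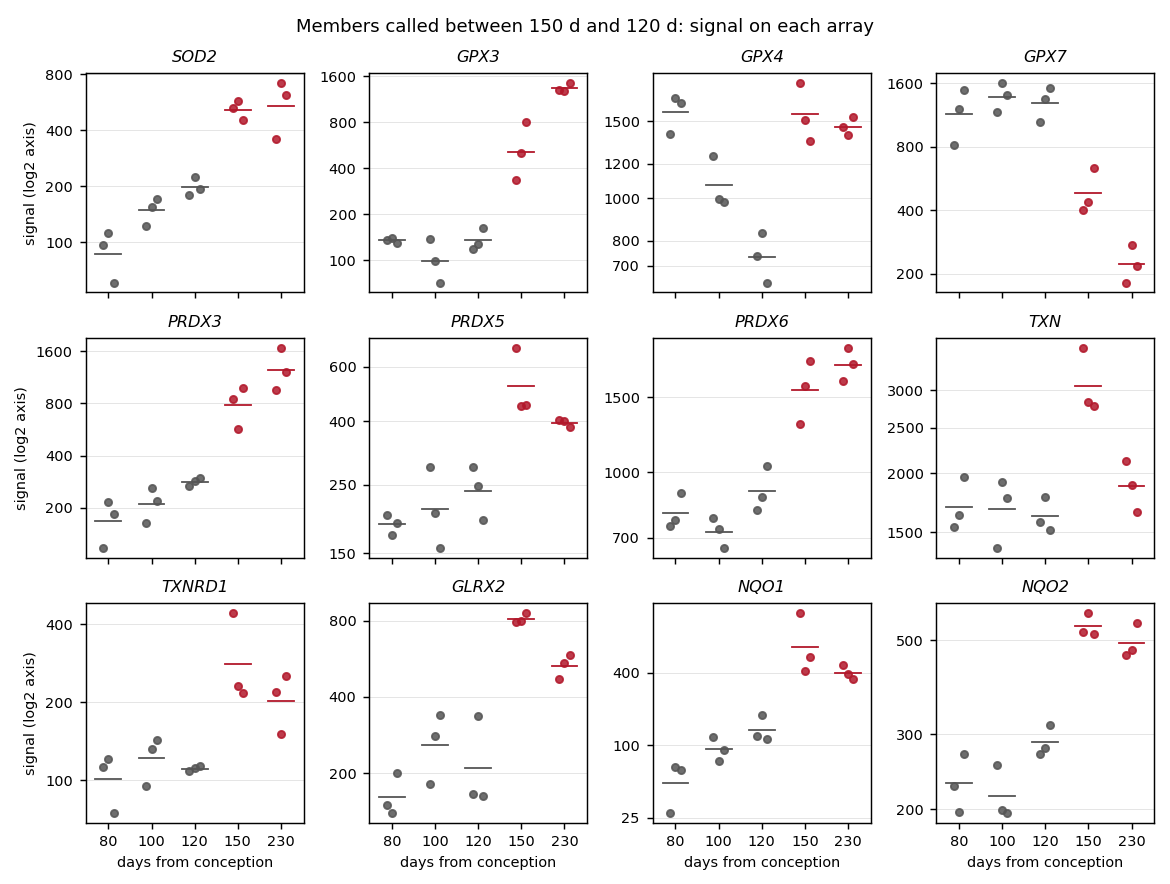
MAS5 signal (vertical axes, log2 scale) against days from conception for the 12 genes called between 150 d and 120 d, with 1 point per animal, fetal animals in grey and postnatal animals in red, and lines at the geometric mean of each stage. GPX7 is the only one of the 12 with lower signals at 150 d, TXN returned towards its fetal range at 230 d, and GPX4 had its lowest signals at 120 d.

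The genes that make and reduce glutathione itself gave no call in any of the 5 comparisons. At an unadjusted p under 0.05, GSR and GSS were counted between 150 d and 120 d and GSR, GSS and GCLM between the postnatal and the fetal mean, where 38.3% and 58.1% of all genes tested had such a p. GSR, glutathione reductase, which returns oxidised glutathione to its reduced form, had 56.9, 86.6 and 79.2 at 150 d, against 29.4, 48.6 and 20.9 at 120 d. The groups did not overlap, but only 4 of 15 arrays reached 50 and the difference missed the threshold (log2 fold change 1.24 ± 0.36, adjusted p = 0.0286). GSS, glutathione synthetase, gave 91.2, 57.3 and 96.6 at 150 d, against 176.0, 136.5 and 96.8 at 120 d, with a log2 difference of -0.73 (adjusted p = 0.124). GCLM, the modifier subunit of the rate-limiting ligase, differed by 0.16 with an interval of -0.49 to 0.82. The catalytic subunit GCLC stayed at 9.8 to 36.3 on postnatal and 0.7 to 29.0 on fetal arrays, below the minimum, and was not tested.

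Glutathione transferases, which join glutathione to electrophiles, had no member called between 150 d and 120 d. GSTM3, a cytosolic transferase of the mu class, was the one member called between 230 d and 150 d. It gave 2098.4, 2256.9 and 2260.7 at 230 d, against 735.4, 342.1 and 945.6 at 150 d, a 3.56-fold difference (log2 fold change 1.83 ± 0.33, adjusted p = 0.00703). The 3 animals at 230 d were close together and above all 12 others, while those at 150 d included the lowest of the 15. The call was kept only in the runs without 120 d replicates 2 or 3 or 150 d replicate 3, and lost in the other 12, with log2 fold changes of 1.40 to 2.14 and adjusted p up to 0.0228 over the 15. Between 150 d and 120 d the difference of GSTM3 was -0.96 (adjusted p = 0.0535).

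GSTO1, an omega-class transferase that reduces dehydroascorbate, was lower after birth. It gave 132.0, 92.6 and 83.9 at 150 d and 44.1, 91.9 and 69.9 at 230 d, against 122.7, 98.3 and 148.2 at 120 d and 163.8 to 187.5 over the 80 d and 100 d animals. Averaged over stages, postnatal signals stood 1.91-fold below fetal signals (log2 fold change -0.93 ± 0.17, adjusted p = 0.000686), although the groups overlapped at 120 d and 150 d. GSTK1, the kappa-class enzyme of mitochondria and peroxisomes, was measured near the minimum. Its brightest probe set gave 11.2, 43.8 and 47.0 at 150 d, against 152.6, 78.0 and 66.4 at 120 d, and passed in no comparison (adjusted p = 0.0235 for this one). Another probe set of GSTK1 was called lower in postnatal animals (adjusted p = 0.00131), while 230 d was high in the brightest and low in this one, so the probe sets of this gene disagreed. MGST1 and MGST3, membrane-bound transferases, passed in no comparison, with postnatal minus fetal intervals of -0.84 to 0.24 and -0.05 to 0.73.

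NQO1, a cytosolic quinone reductase and a well-known target of NRF2, had signals of 1247.1, 412.2 and 542.7 at 150 d, against 119.4, 178.8 and 113.0 at 120 d. The groups were far apart, at 4.87-fold (log2 fold change 2.28 ± 0.41, adjusted p = 0.00211). Fetal signals were 27.6 to 66.0 at 80 d and 74.4 to 117.1 at 100 d, and at 230 d they were 461.3, 388.7 and 352.2. In postnatal animals as a whole the signal was 6.04-fold above that of fetal animals (log2 fold change 2.59 ± 0.27, adjusted p = 6.58e-06). NQO2, its relative that uses dihydronicotinamide riboside, gave 524.6, 579.8 and 517.7 at 150 d, against 269.7, 279.1 and 315.8 at 120 d. It was 1.88-fold higher (log2 fold change 0.91 ± 0.18, adjusted p = 0.0034). The postnatal minus fetal log2 difference of NQO2 was 1.09 (adjusted p = 7.76e-06). Its other tested probe sets, with lower signals, passed in no comparison. Between 150 d and 120 d their log2 differences were 0.69 and 0.06 (adjusted p = 0.24 and 0.965). Between the means they were 0.53 and -0.22 (adjusted p = 0.102 and 0.71). The dimmer of these probe sets had geometric means under 50 on both sides of both comparisons.

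The heme oxygenases, which break heme down to biliverdin, carbon monoxide and iron, passed in no comparison. HMOX1, the inducible form and also an NRF2 target, had 7.3, 73.4 and 11.9 at 150 d, against 96.8, 26.6 and 65.5 at 120 d. Its postnatal minus fetal log2 difference was -1.17 with an interval of -2.17 to -0.16 (adjusted p = 0.0538), and 10 of 15 arrays reached 50. HMOX2, the constitutive form, gave 196.7, 29.0 and 15.2 at 230 d, against 158.7, 271.0 and 142.4 at 150 d, and the spread at 230 d left the difference uncalled (adjusted p = 0.0896). MSRB2, a mitochondrial methionine sulfoxide reductase, had a postnatal minus fetal difference of 0.22 with an interval of -0.43 to 0.87.

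Neither regulator was called between 150 d and 120 d. NFE2L2 gave 921.3, 805.0 and 550.8 at 150 d, against 733.9, 692.0 and 816.4 at 120 d, a log2 difference of -0.01 with an interval of -0.57 to 0.55. At 230 d it reached 1335.6, 1440.3 and 825.4, and the postnatal minus fetal difference of 0.55 missed the threshold (adjusted p = 0.0156). KEAP1, its repressor, had 494.6, 299.2 and 636.2 at 150 d, against 186.3, 323.3 and 411.1 at 120 d, which overlapped. All 3 animals at 230 d, with 870.9, 790.5 and 763.2, were above the other 12. The postnatal mean of KEAP1 was 2.04-fold above the fetal mean (log2 fold change 1.03 ± 0.22, adjusted p = 0.00168), and its other 2 probe sets were called in the same direction, with log2 fold changes of 0.84 and 1.07.

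**Figure D3:**
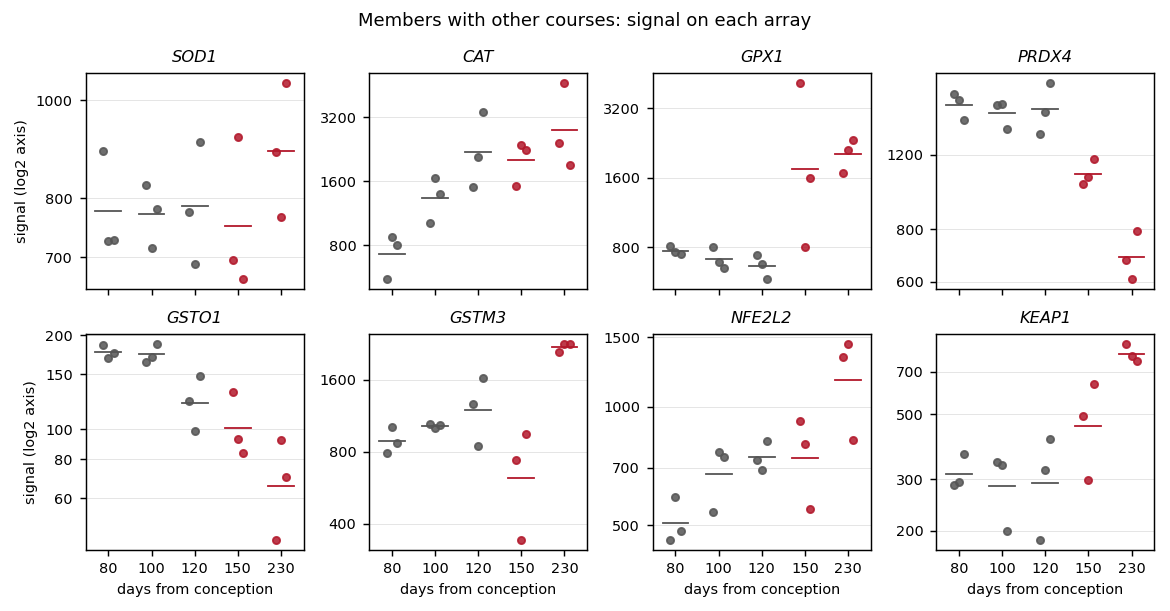
MAS5 signal (vertical axes, log2 scale) against days from conception for 8 genes not called between 150 d and 120 d. There is 1 point per animal, fetal animals in grey and postnatal animals in red, and lines mark the geometric mean of each stage. GPX1 had a log2 difference of 1.39 between 150 d and 120 d and missed the threshold. SOD1 stayed level, CAT was gradually higher, PRDX4 and GSTO1 were lower after birth, and GSTM3 and KEAP1 had their highest signals in the 3 animals at 230 d.

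Of 8 members tested that are known targets of NRF2, 3 were called higher at 150 d against 120 d, NQO1, TXNRD1 and TXN, and the same 3 between the postnatal and the fetal mean. The others, HMOX1, SRXN1, GCLM, GSR and PRDX1, were not called. The median log2 fold change of the 8 was 0.58 between 150 d and 120 d. It was 0.64 for all 37 and -0.08 for all genes tested, of which 6.73% were called higher. Between the postnatal and the fetal mean 16.4% of all genes tested were called higher. Replicate 1 at 150 d had the highest of the 3 signals for 6 of these 8 genes, where it was highest for 40.2% of all genes tested. Without that array NQO1 was still called, and TXN and TXNRD1 were not.

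Of 8 members listed as mitochondrial, SOD2, PRDX3, PRDX5, TXN2, TXNRD2, GLRX2, GLRX5 and MSRB2, 4 were called higher at 150 d against 120 d and none lower. The fitted log2 differences of the 8 had a median of 1.25, and that of MSRB2 was 0.05 with an interval of -0.96 to 1.05. Between the postnatal and the fetal mean 7 were called higher, all except MSRB2, with a median of 1.40. Over all genes tested, 6.73% were called higher and 6.53% lower at 150 d, and 16.4% and 21.7% between those means. GSTK1, which is found in mitochondria and peroxisomes, was not on that list, and its log2 differences were -1.70 between 150 d and 120 d (adjusted p = 0.0235) and -0.70 between the postnatal and the fetal mean (adjusted p = 0.0785). GPX1, described above as cytosolic and mitochondrial, was also not on that list. Its log2 differences were 1.39 between 150 d and 120 d (adjusted p = 0.0322) and 1.39 between the means (adjusted p = 0.00102). With GSTK1 but not GPX1 added to the 8, making 9 genes, the medians were 1.12 and 1.13. Beside them stood 17 nuclear genes fixed as a list of mitochondrial content, namely genes of the respiratory chain, ATP synthase and citric acid cycle, and VDAC1. These 17 had a median of 1.50 between 150 d and 120 d, with 15 called higher. Between the postnatal and the fetal mean their median was 2.05, with all 17 called higher. Their summed signal was 180100 to 243600 on postnatal arrays, against 46530 to 82120 on fetal arrays. More mitochondria per cell, more RNA per mitochondrion and a larger share of fibres in the tissue cannot be told apart in these bulk samples, and neither can fewer cells of a type and less RNA per cell. The 4 members tested that act in the endoplasmic reticulum or outside the cell were mixed, with GPX3 called higher, GPX7 and PRDX4 lower and SOD3 not called between the postnatal and the fetal mean.

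**Figure D4:**
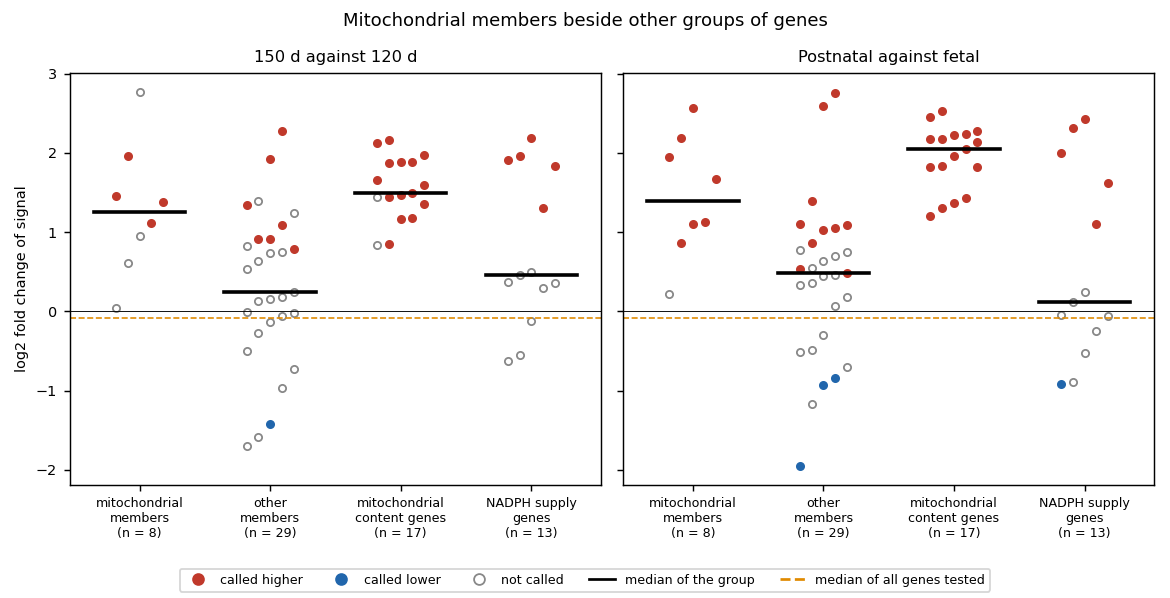
Log2 fold change of signal (vertical axis) for the 8 members listed as mitochondrial, the other 29 members (GSTK1 among them), 17 mitochondrial content genes and 13 genes of NADPH supply, at 150 d against 120 d (left) and for the postnatal against the fetal mean (right). Each point is a gene, filled where it passed the test, black bars are group medians and the dashed line is the median of all genes tested. The 8 listed members and the mitochondrial content genes lay above 0 in both panels, with medians of 1.25 and 1.50 in the left one.

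NADPH drives both the glutathione and the thioredoxin pool. Of 13 supply genes tested, IDH1, IDH2, ME1, ME3 and NNT were higher at 150 d against 120 d and none lower. Among all genes tested, 6.73% were called higher there and 6.53% lower, against 16.4% and 21.7% between the postnatal and the fetal mean. The call of ME3 was lost in 11 of 15 runs that left out 1 array (log2 fold change 1.03 to 1.49). IDH2, the NADPH-producing isocitrate dehydrogenase of mitochondria, was 4.57-fold higher (adjusted p = 0.000255), with 11526.3, 8043.7 and 6881.0 at 150 d, against 2094.1, 2319.6 and 1373.8 at 120 d. NNT, which makes NADPH from the mitochondrial proton gradient, was 3.90-fold higher (adjusted p = 7.33e-05), and IDH1, the cytosolic isocitrate dehydrogenase, 3.56-fold (adjusted p = 0.000157). The same 5 were higher between the postnatal and the fetal mean, and PGD, of the pentose phosphate pathway, was lower, a gene named after its value had been seen.

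Of 21 other glutathione enzymes tested, ETHE1 was higher and GSTA4 lower at 150 d against 120 d, and 5 were higher and 2 lower between the postnatal and the fetal mean. At 150 d the call of ETHE1 was lost in 11 of 15 runs without 1 array (0.67 to 0.84 on the log2 scale) and that of GSTA4 without any of the 120 d arrays or 150 d replicates 1 or 2 (-1.18 to -0.92), while both were kept in all 15 runs between the means. GPX2, a peroxidase best known from the gut, was 5.54-fold above the fetal mean (adjusted p = 0.000271), and GSTA4, which conjugates the lipid aldehyde 4-hydroxynonenal, was 2.51-fold below it (adjusted p = 7.51e-06). Of 18 other thioredoxin-fold and disulfide enzymes, TXNDC17 was higher and QSOX1 lower at 150 d. TXNDC17 was lower at 230 d against 150 d (log2 fold change -1.09, adjusted p = 0.00774), where 1.42% of all genes were called lower. That call was lost in 13 of 15 runs without 1 array. Between the means, 3 were higher and 4 lower, and the higher call of TXNDC17 was lost in 9 of 15 such runs (0.45 to 0.57). Over all genes tested, 6.73% were called higher and 6.53% lower at 150 d, and 16.4% and 21.7% between the means. QSOX1, a secreted enzyme that forms disulfide bonds, fell 4.65-fold at 150 d (adjusted p = 0.000116), and P4HB, protein disulfide isomerase, was 1.62-fold below the fetal mean (adjusted p = 0.000739).

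Of 11 other selenoprotein and selenium-use genes, none was called at 150 d against 120 d, and SELENOS, SELENOM and SELENOH were lower between the postnatal and the fetal mean. SELENOS was lost in 13 of 15 runs without 1 array (log2 fold change -0.61 to -0.44), and SELENOM and SELENOH were kept in all. The selenium peroxidases GPX1, GPX3 and GPX4 among the members were higher in that comparison. Of 10 other NRF2 and stress regulators, PARK7 was higher at 150 d (2.01-fold, adjusted p = 0.00203) and SESN1 higher at 230 d against 150 d, with 1836.2, 1498.6 and 1243.6, against 432.8, 244.4 and 485.8 (adjusted p = 0.00231). Of 11 genes of iron, heme and copper handling, FTH1, TFRC and BLVRB were higher and CCS and ATOX1, copper chaperones, lower between the means. TFRC and BLVRB reached 50 on 7 and 5 of 15 arrays. The calls of FTH1, TFRC and BLVRB were lost with hybridisation-control scaling, and that of FTH1 also with quantile normalization. CCS, which loads copper into SOD1, was 1.90-fold lower (adjusted p = 6.47e-05), while SOD1 itself was level. Of 17 other aldehyde, quinone and epoxide enzymes, 5 were higher and 4 lower between the means, with ALDH1A1 at 5.52-fold higher (adjusted p = 2.66e-06). Beside the counts of these lists, 6.73% of all genes were called higher and 6.53% lower at 150 d. Between the means the shares were 16.4% and 21.7%.

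A further list held sources of superoxide and hydrogen peroxide together with nitric oxide synthases and uncoupling proteins. Of its 10 genes tested, only UCP3, an uncoupling protein, was called higher at 150 d against 120 d, and only NOS2 lower. The call of NOS2 was lost in 12 of 15 runs without 1 array (log2 fold change -1.98 to -1.12). UCP3, an uncoupling protein of the inner mitochondrial membrane of muscle, gave 1470.1, 1444.7 and 1239.8 at 150 d, against 127.7, 172.5 and 231.3 at 120 d (8.02-fold, adjusted p = 0.000137). CYBA and CYBB, the membrane subunits of the phagocyte oxidase, and the nitric oxide synthases NOS2 and NOS3 were lower between the postnatal and the fetal mean, where NOS3 was lost without 80 d replicate 3, 120 d replicate 2 or 230 d replicates 2 or 3 (-0.48 to -0.41). The members' share of calls at 150 d was 12 of 37. It stood beside 5 of 13 for NADPH supply and 2 of 21 for the other glutathione enzymes. These shares were not tested against each other. Among all genes tested, 6.73% were called higher and 6.53% lower at 150 d, and 16.4% and 21.7% between the means.

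Marker genes of other cell types also moved between the stages. Over all genes tested, 6.73% were called higher and 6.53% lower at 150 d, and 16.4% and 21.7% between the means. Summed signals cover every gene of a list with a probe set, also those not tested. Of 7 erythroid markers tested, HBB, HBG and ALAS2 were lower at 150 d against 120 d. The same genes were lower between the postnatal and the fetal mean, where TFRC was higher. The summed signal of the list was 397.9 to 1473 on postnatal arrays, against 12320 to 26180 on fetal arrays. HBB alone was 10767.1 to 23752.7 on fetal arrays, most of that sum. Of 9 fibroblast and matrix markers, FN1 and POSTN were lower at 150 d and 5 were lower between the postnatal and the fetal mean, with summed signals of 43400 to 72000 on postnatal and 55900 to 82970 on fetal arrays. GPX7 and PRDX4 were lower in the same comparison, and the part of that list in their values was not tested. Of these marker calls at 150 d, HBG was lost in 13 of 15 runs without 1 array and POSTN in 12.

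Of 9 endothelial markers, 4 were lower at 150 d. Between the postnatal and the fetal mean 4 were lower and 1, FLT1, was higher (1.62-fold, adjusted p = 0.00262). Sums were 2317 to 4128 on postnatal and 3844 to 7149 on fetal arrays. Of 10 macrophage and leukocyte markers tested, CD3D was lower at 150 d against 120 d (log2 fold change -2.13, adjusted p = 0.00653). Both of its geometric means there were under 50, at 11.3 and 49.3. CD3D was higher at 230 d against 150 d (3.21, adjusted p = 0.00245). CD3E was higher and FCER1G lower between the postnatal and the fetal mean. PTPRC and ITGAM were below 50 on all arrays and were not tested. Sums were 804 to 1696 on postnatal and 1011 to 1373 on fetal arrays. Of 7 adipocyte markers FABP4 was higher at 150 d, and sums on postnatal and fetal arrays were 1265 to 2205 and 535.3 to 1662. Of 8 proliferation markers none was called at 150 d and 6 were lower between the means, with sums of 966.7 to 2335 and 1616 to 3600. Muscle fibre markers were higher in all 14 genes between the means, with sums of 248900 to 514400 on postnatal and 110700 to 217800 on fetal arrays, and MB, myoglobin, was the one called at 150 d. Over the runs without 1 array, CD3D was lost in 7 at 150 d and CD3E and FCER1G in 11 and 9 between the means. The part of these lists in the results was not tested.

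The calls between 150 d and 120 d differed in how much they rested on single arrays. GPX3, GPX4 and GLRX2 were called in all 15 runs that left out 1 array. NQO1 was lost only without 120 d replicate 3 (adjusted p = 0.0119) and NQO2 without 120 d replicates 1 or 2 or 150 d replicate 2 (log2 fold change 0.86 to 0.98 over the 15 runs). GPX7 was lost without 120 d replicates 2 or 3 or 150 d replicates 1 or 2 (-1.63 to -1.29). SOD2 (1.30 to 1.47) and TXN (0.79 to 1.00) were lost without any of the 120 d arrays or 150 d replicates 1 or 2, and PRDX3 (1.30 to 1.69) without any of the 120 d arrays or 150 d replicates 1 or 3. PRDX5 was lost in 8 runs (0.92 to 1.25), TXNRD1 in 10 (1.01 to 1.52) and PRDX6 in 14 (0.67 to 0.92), including runs without arrays of other stages, which enter through the shared spread. Between the postnatal and the fetal mean, 17 of the 20 calls were kept in all 15 runs. CAT was lost in 12, GPX4 without 150 d replicate 1 or 230 d replicate 3 (0.43 to 0.54) and TXN without 150 d replicate 1 or 230 d replicate 1 (0.46 to 0.57).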

How the data were processed

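The authors deposited intensities, which are linear MAS5 signals from Affymetrix bovine arrays hybridised with labelled RNA of 15 sheep. By the methods, MAS5 took the background from the lowest 2% of probes in 16 grids, summarised each probe set from its matched and mismatched probes by a Tukey biweight and scaled each array to 200. The MAS5 version was not given in the sources used here. Stages came from the labels. Sex was not used as a covariate, since the labels do not give it for single animals. No column of comparisons by the authors was used.

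After 112 control probe sets were removed, 24016 remained, of which 15998 (66.6%) reached 50 on 3 or more arrays and were tested. A floor of 0.1, which 2 values met, was applied and log2 taken. Genes were named from the platform annotation, in which 13292 probe sets had 1 symbol, 86 several and 10638 none, and only the 13292 were named. The fit was limma 3.58.1 in R 4.3.3 (lmFit and eBayes over all 15 arrays, 10 residual degrees of freedom), with 4 contrasts of neighbouring stages and 1 of the mean of the 2 postnatal minus the mean of the 3 fetal stages. P-values were two-sided and adjusted by Benjamini-Hochberg within each contrast over all probe sets tested, and called at 0.01. Fold changes are of geometric means, and errors are standard errors of the fit. The number of arrays limits the precision. For a gene with a geometric mean under 50 in 1 of the groups compared, only the fitted log2 difference is printed, which is uncertain at such signals. The script was tested on simulated data. Plots used Python 3.11.15 with matplotlib 3.10.9.

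All 43 members were named by the list. From other lists, up to 5 genes past the test with the largest change per comparison could be named. The members, the lists and the tests were chosen with earlier results of these data known. Alternatives were other scalings, filters, an offset, limma's trend option, a replicate block, only the compared stages, another threshold, any probe set of a gene and leaving out each array. No sequences or genome positions were used here.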

Additional observations from a re-analysis of the deposited data

How the results depend on the processing

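Of 33 calls among the members over the 5 comparisons, 33 were kept with array medians set equal, with an offset of 16, with a stricter filter (signal of 100) and under limma's options trend and robust, 28 with quantile normalization, 24 with no filter, 24 with scaling without the 100 brightest probe sets and 11 with hybridisation-control scaling, which left 20 short of the threshold and turned 2. Between 150 d and 120 d, where 12 members were called, the number called was 6 with no filter, all among the 12. It was 7 without the 100 brightest (5 higher, 2 lower), with 6 of the 12 kept, and 7 with hybridisation-control scaling (2 higher, 5 lower), with 3 of the 12 kept. When only the 6 arrays of those stages were fitted it was 0, where 19 of 37 members and 32.4% of all genes had an unadjusted p under 0.05 and 1 gene of the whole array passed. Without 1 array the number was 4 to 11, with 4 without 120 d replicate 2 or 3, 6 without 120 d replicate 1 or 150 d replicate 1, and 7 without 150 d replicate 2, of which 5 were among the 12. Between 230 d and 150 d, where 1 member was called, the number was 2 with the offset and 2 with the stricter filter (GPX3 added), 3 with the trend option, 5 at an adjusted p under 0.05, 0 with no filter, with hybridisation-control scaling and with the 6 arrays alone, and 0 to 2 without 1 array. Between the postnatal and the fetal mean, where 20 members were called, the number was 13 with hybridisation-control scaling (5 higher, 8 lower), with 8 of the 20 kept. There GPX4 turned to -0.20 and TXN to -0.16 on the log2 scale, as did TXNDC17, which is no member, to -0.19. The call of ME3 at 150 d was also lost with no filter, the trend option and the scalings to hybridisation controls and without the brightest, that of ETHE1 with no filter and both those scalings, and that of SELENOS between the means with medians set equal, quantile normalization and no filter. Over the whole array, between the postnatal and the fetal mean, hybridisation-control scaling gave 398 genes higher and 3796 lower, medians set equal 1625 and 1216, and the scaling used 1241 and 1636. Both scalings to hybridisation controls and without the brightest probe sets were chosen after the data had been seen. The counts between fetal stages stayed at 0 under every alternative run, which does not show that nothing changed there.

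With the replicate number as a block the count was 11 at 150 d against 120 d, 2 at 230 d against 150 d and 21 for the postnatal against the fetal mean. TXNRD1 at 150 d was the 1 member call lost, and of the other genes named ME3, ETHE1 and HBG at 150 d and SELENOS between the means were lost too. By the methods each stage had different animals, so the numbers do not pair them. Deviations from the stage mean correlated at -0.053 to 0.21 over 30 pairs of same-numbered arrays of different stages (mean 0.045). Over 60 other pairs they correlated at -0.20 to 0.12 (mean -0.023). Whether same-numbered arrays shared anything else was not tested.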
